A study of Rattus norvegicus with 36 samples.

Results

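Rat granulosa cells stimulated with cAMP were compared with and without HPTE at 10 µM. HPTE is a hydroxylated metabolite of the pesticide methoxychlor, and cAMP is the second messenger that relays the signal of follicle-stimulating hormone (FSH) inside the cell. The comparison used 6 of the 36 arrays of the series, chosen by their labels: 3 cultures with cAMP and 10 µM HPTE, called exposed here, and 3 with cAMP and no HPTE, called unexposed. The cells came from intact, unprimed female Sprague Dawley rats 21 to 27 days old and were released from the follicles by needle puncture. After 24 h in medium with 5% serum they were cultured for 48 h with 1 mM cAMP, with or without HPTE, and in a medium that per the series' design text held 0.1 µM androstenedione in every group. The groups set beside them were cultures with cAMP and 1 or 5 µM HPTE, unstimulated cultures with 0 or 10 µM HPTE, and cultures with FSH at 3 ng/ml and 0 or 10 µM HPTE, again 3 arrays each. The labels do not state the form of cAMP, and do not say that the 3 cultures of each group had different animals as their source; the p-values measure the spread between cultures, which may be technical.

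Granulosa cells surround the oocyte and make estrogen and progesterone from precursors and cholesterol. FSH and cAMP act through protein kinase A to switch on the genes of steroid synthesis, and the cells still divide before ovulation. Independent of hormones, cells that sense a lack of amino acids, misfolded protein in the endoplasmic reticulum (ER) or other stress phosphorylate the initiation factor eIF2α, which raises translation of the transcription factor ATF4; ATF4 then activates genes for amino acid transport and synthesis. A separate factor, Nrf2, activates genes that detoxify reactive compounds.

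Values are log2 intensities, on which 1 unit is a doubling, and differences are exposed minus unexposed with the standard error (SE) of the limma fit, n = 3 against 3. Stimulation as such, which FSH and cAMP share, was seen in Inha, the inhibin alpha subunit, at 12.20, 12.73 and 12.20 in unexposed cultures 1, 2 and 3 against a mean of 9.96 in unstimulated ones, which does not tell cAMP from FSH. Array 2 of the unexposed group stood apart: Cyp19a1, the aromatase gene, was at 11.01 on it against 7.62 and 6.46 on arrays 1 and 3. The FSH arrays without HPTE showed the converse, with 11.49, 7.48 and 11.46. Over all probe sets, the array labelled cAMP number 2 correlated at 0.990 with FSH number 1 and at 0.985 with cAMP number 1, and the array labelled FSH number 2 at 0.989 with cAMP number 1 and at 0.975 with FSH number 1. Both look exchanged, but the labels were kept, and results are given with and without array 2. Unexposed array 3 had the lowest upper quartile of log2 intensity of all 36 arrays, 7.68 against 7.83 to 8.07. Its median, 6.20 against 6.04 to 6.17, and its first quartile, 5.26, were the highest. Median intensities ran from 65.8 to 73.7 over the series. For Gapdh, the 3′ control minus the 5′ control on the log2 scale, a sign of RNA integrity, was 1.89, 1.96 and 1.07 in the unexposed and 2.05, 1.61 and 0.927 in the exposed group, low on array 3 of both. This held over the series, with 0.767 to 1.07 on the number 3 arrays of all groups and 1.61 to 2.4 on the others.

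HPTE at 10 µM changed 525 of 31042 probe sets (1.69%) at an adjusted p under 0.05. Of these, 374 (1.2% of those tested) rose and 151 (0.486%) fell. At least 2-fold changes were seen for 177 of those that rose and 77 of those that fell. On 513 of the 525 the exposed and unexposed arrays did not overlap, and on 520 each exposed array, set against its unexposed namesake by number, moved the same way. The calls were made from these same arrays, so both counts are no support for them. Counted as genes, with 1 probe set each, 357 of 14217 (2.51%) changed: 257 (1.81%) rose and 100 (0.703%) fell. Genes whose exposed arrays all lay above or all below the unexposed ones made up 7.19% and 4.68%, called or not. The median difference over all genes was 0.0081 and 51.4% of them lay above 0. Without unexposed array 2 the fit called 659 probe sets (2.12%), 475 higher (1.53%) and 184 lower (0.593%), of which 420 were among the 525. Leaving out unexposed array 1 or exposed array 3 gave 347 and 278 calls. Without unexposed array 3 the counts were 217 higher and 201 lower, and 312 of the 525 kept their call. Rises then made up 51.9% of the calls, against 71.2% with all arrays. With the replicate number as a block, 1810 (5.83%) were called, 1206 higher (3.89%) and 604 lower (1.95%), all 525 among them. The deviations of the 6 compared arrays bore out the pairing for number 3 but did not tell numbers 1 and 2 apart. Over all 12 groups, deviations of arrays with the same number correlated at medians of 0.398, 0.368 and 0.778 for numbers 1, 2 and 3. The lowest pairs were at -0.008, -0.124 and 0.278. The fit without the block leaves what arrays of a number share in the spread between cultures. As genes, 2.26% rose and 0.788% fell without array 2, and 5.66% rose and 2.28% fell in the blocked fit; list counts under these settings are read against those.

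The largest rises were an aldo-keto reductase, a cationic amino acid transporter and a stress-induced pseudokinase. Separation of the groups is part of the rule that chose these genes and is no support for them. Akr1c15, the reductase, lay at 6.54, 6.40 and 6.25 in unexposed cultures 1, 2 and 3 and at 9.69, 9.64 and 10.35 in exposed ones. Exposed array 3 was the highest, and the difference was 3.49 ± 0.19 (SE), or 11.3-fold (adjusted p = 9.43e-13). All 12 genes with the largest rise kept their call whenever any 1 of the 6 arrays was left out; of the 12 with the largest fall, 9 did. The plot of single arrays shows these 24 genes.

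**Figure D1:**
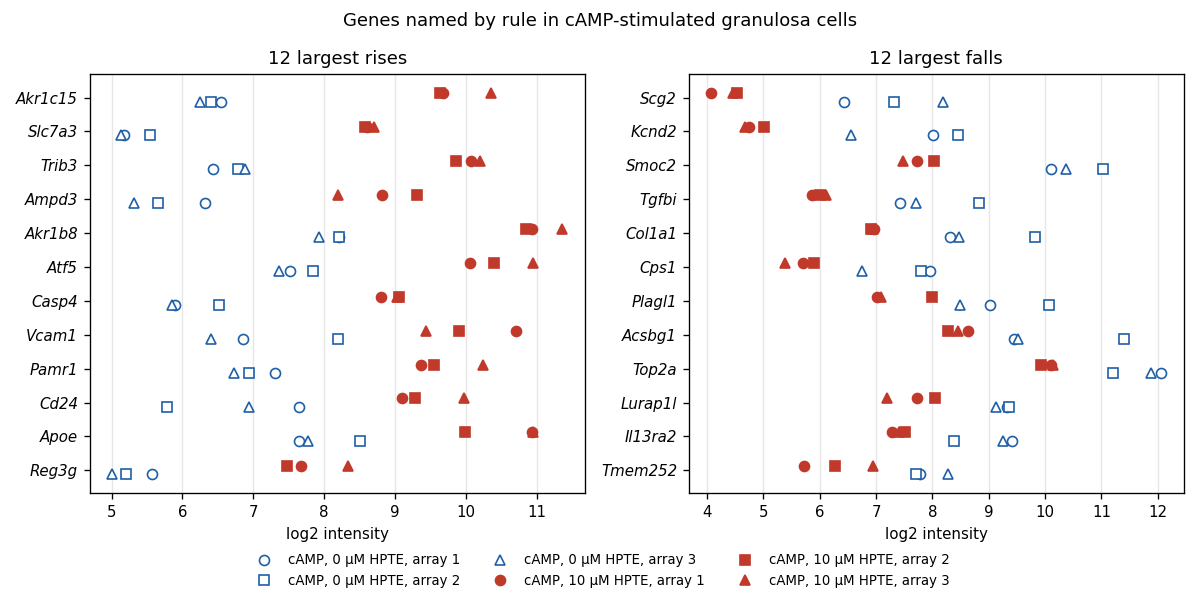
Log2 intensity (horizontal axis) of the 12 genes with the largest rise (left) and the 12 with the largest fall (right) among called genes whose groups do not overlap; open blue symbols are the 3 cAMP cultures without HPTE, filled red symbols the 3 with 10 µM HPTE, and the shape gives the array number. Red and blue symbols are separate for every gene, as the rule requires; the open square, array 2, lies apart for Vcam1, Acsbg1 and Col1a1.

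Genes of the ATF4 and amino acid response rose together. Of the 32 measured members of this list, 18 rose and none fell, against 1.81% and 0.703% of all genes, with a median difference of 1.08; 30 of the 32 differences were positive. The count was 17 without unexposed array 2, and with any 1 of the 6 arrays left out it ran from 13 to 17, with 12 of the 18 called each time. Promoters of the members Trib3 and Chac1 are shown because both hold the letters TGATGNAA, the core of the composite element that ATF4 binds with C/EBP factors, where N is any base. The sequences are stretches of 100 bases upstream of the transcription start from RefSeq (GRCr8), chr3:161275534-161275633 on the minus strand and chr3:126795914-126796013 on the plus strand, written 5′ to 3′ along the gene; capitals mark the match, which in both reads as its reverse complement, TTNCATCA.
Trib3: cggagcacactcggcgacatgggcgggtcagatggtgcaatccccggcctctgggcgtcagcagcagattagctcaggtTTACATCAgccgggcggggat
Chac1: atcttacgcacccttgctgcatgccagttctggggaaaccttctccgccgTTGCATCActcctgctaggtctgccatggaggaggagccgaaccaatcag
Searched on both strands over 300 bases per gene (250 before and 50 after the start), the letters were found in 5 of the 16 members that rose and have a promoter entry (Chac1, Nupr1, Slc1a4, Slc7a1 and Trib3). They were in 1 of the 11 that did not pass (Fgf21), and in 3.82% of all 27457 promoters.

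Trib3, the pseudokinase induced by ATF4, lay at 6.44, 6.78 and 6.89 in the unexposed and at 10.07, 9.86 and 10.19 in the exposed cultures, a difference of 3.34 ± 0.36 (adjusted p = 1.5e-06); the smallest difference among its 3 probe sets was 1.38. Chac1, which breaks down glutathione, lay at 6.22, 6.85 and 5.37 and at 8.87, 8.40 and 8.09, 2.31 ± 0.29 higher (adjusted p = 1.46e-05). In the unexposed group array 3 was the lowest for Chac1 and the highest for Trib3. Among transcription factors, Atf5 lay at 7.51, 7.85 and 7.37 in unexposed and 10.06, 10.40 and 10.95 in exposed cultures, 2.89 ± 0.33 (adjusted p = 3.35e-06). Ddit3, encoding the stress factor CHOP, rose by 2.13 ± 0.49 (adjusted p = 0.0151), a call lost without unexposed array 1 (adjusted p = 0.114) or exposed array 3 (0.14). The Atf4 transcript itself differed by 1.08 ± 0.46 and was not called (adjusted p = 0.405), while in the blocked fit its adjusted p was 9.59e-05.

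Amino acid transporters made up 6 of the 18. Slc7a3, which takes up arginine and lysine, lay at 5.18, 5.54 and 5.14 in unexposed cultures, near the first quartile of all probe sets (4.99 to 5.26 over the arrays), and at 8.61, 8.57 and 8.70 in exposed ones. Its difference of 3.34 ± 0.36 was 10.1-fold (adjusted p = 1.33e-06). Slc7a11, the cystine importer, rose by 2.17 ± 0.43 (adjusted p = 0.0042) and Slc3a2, its partner chain at the membrane, by 1.86 ± 0.31 (0.000509). The glycine transporter Slc6a9 rose by 1.63 ± 0.20 (8.56e-06), the neutral amino acid transporter Slc1a4 by 1.47 ± 0.21 (7.25e-05) and the cationic transporter Slc7a1 by 0.95 ± 0.17 (0.00114). Slc7a5, Slc1a5 and Slc38a2, further transporters of the list, did not pass, with 1.19 ± 0.51, 0.30 ± 0.16 and 0.01 ± 0.35.

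Enzymes of amino acid synthesis followed. Asns, asparagine synthetase, lay at 7.32, 7.94 and 6.13 in unexposed and 9.81, 9.49 and 9.52 in exposed cultures, with unexposed array 3 the lowest and no overlap. The difference was 2.47 ± 0.30 (adjusted p = 1.19e-05). The serine pathway was represented by Phgdh (0.95 ± 0.22, adjusted p = 0.0164), Psat1 (1.23 ± 0.24, 0.00354) and Psph (1.08 ± 0.22, 0.00544), which catalyse its consecutive steps, and by Shmt2, which converts serine to glycine in mitochondria (1.23 ± 0.27, 0.0107). Without unexposed array 3, Psat1 and Psph kept their call (adjusted p = 0.0483 and 0.0463) and Phgdh and Shmt2 did not (both 0.0726). Phgdh was also lost without unexposed array 1 (0.101) or exposed array 1 (0.132), Shmt2 without unexposed array 1 (0.0526) or exposed array 3 (0.129), and Psph without exposed array 3 (0.0525). Nupr1, a small stress protein, rose by 1.95 ± 0.37 (adjusted p = 0.00259). Aldh18a1 of proline synthesis and the stress sensor Sesn2 passed with 0.94 ± 0.24 and 0.43 ± 0.11 (adjusted p = 0.0339 and 0.0461), and each was lost in 5 of the 6 leave-outs, at up to 0.282 and 0.243.

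Aminoacyl-tRNA synthetases, which load tRNAs with amino acids, gave 3 calls among 19 members, all rises, and 12 with the replicate block. All 19 differences were positive, with a median of 0.57. Wars1, the tryptophan enzyme, rose by 1.23 ± 0.24 (adjusted p = 0.00285) and kept its call in all 6 leave-outs. Yars1 (1.00 ± 0.23, adjusted p = 0.0152) and Aars1 (0.81 ± 0.20, 0.0317), for tyrosine and alanine, each lost it in 4 leave-outs, among them without unexposed array 3 (0.157 and 0.241). Of 23 genes of ER chaperones and the unfolded protein response, 5 rose and none fell, with a median of 0.57 and 22 positive differences; the block gave 15. Herpud1, of ER-associated degradation, lay at 8.32, 8.84 and 8.49 in unexposed and 9.94, 9.31 and 9.89 in exposed cultures (1.16 ± 0.22, adjusted p = 0.00236) and was called in all 6 leave-outs. Sdf2l1, Xbp1, Ero1b and Eif2ak3, the kinase PERK, rose by 0.84 ± 0.19, 0.81 ± 0.20, 0.65 ± 0.16 and 0.63 ± 0.16 (adjusted p from 0.0159 to 0.0344). Without unexposed array 3, the array with the low upper quartile, only Herpud1 of the 5 passed (0.0138), and the other four had adjusted p from 0.141 to 0.268. The chaperone Hspa5 (BiP) had 0.68 ± 0.20 and did not pass (adjusted p = 0.0913), though it did without unexposed array 2 (0.025) and with the block (0.00212).

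**Figure D2:**
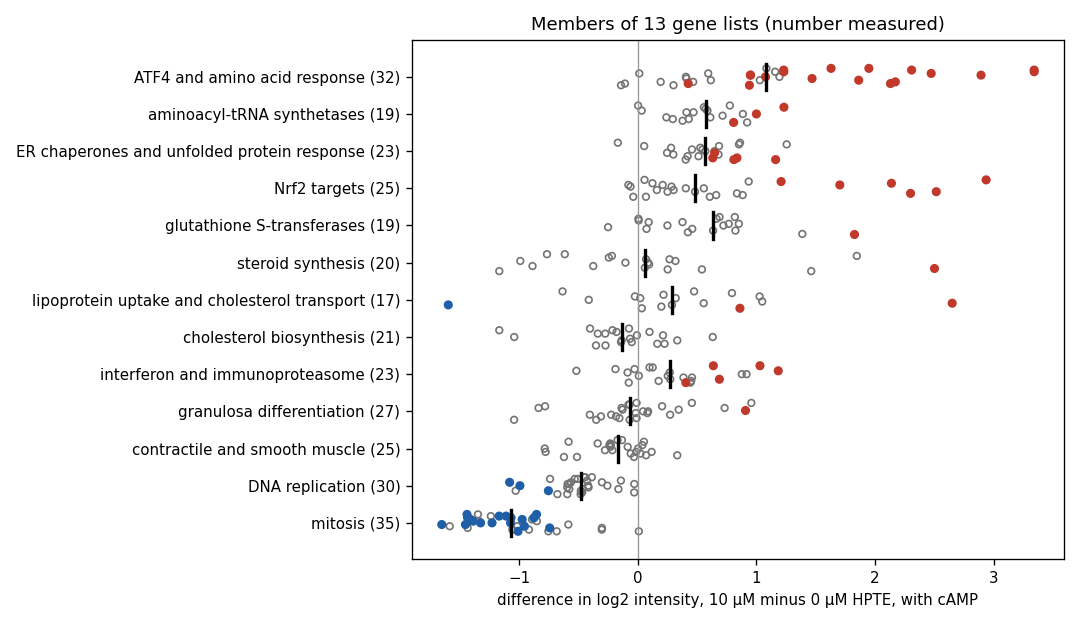
Difference in log2 intensity between 10 and 0 µM HPTE with cAMP (horizontal axis) for each measured member of 13 gene lists, with the number measured in brackets; filled points passed an adjusted p of 0.05 (red higher, blue lower), open points did not, and the black bar is the list's median. The ATF4 list reaches 3.34 and has 18 red points, and the mitosis list has 18 blue points and a median of -1.07.

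Detoxifying enzymes under Nrf2 rose in part. Of 25 measured Nrf2 targets, 6 rose and none fell (median 0.48; 22 of 25 positive), 4 of them in all 6 leave-outs, and with the block 11 rose. Akr1b8, an aldo-keto reductase, lay at 8.21, 8.22 and 7.93 in unexposed and 10.94, 10.86 and 11.36 in exposed cultures, 2.94 ± 0.38 (adjusted p = 2.34e-05). The efflux pump Abcc4, which also exports cAMP, lay at 8.24, 8.37 and 7.01 and 10.38, 10.52 and 10.27, 2.52 ± 0.32 (1.55e-05). Unexposed array 3 was the lowest for both. Nqo1, a quinone reductase, rose by 2.30 ± 0.37 (adjusted p = 0.00045) and Srxn1, sulfiredoxin, by 2.14 ± 0.33 (0.000215). Hmox1, heme oxygenase, rose by 1.70 ± 0.35 (0.00538) but lost its call without unexposed array 3 (0.0596). The carbonyl reductase Cbr1 rose by 1.21 ± 0.28 (0.0174), a call lost without unexposed array 3 (0.0907), unexposed array 1 (0.0836) or exposed array 3 (0.148). The rate-limiting genes of glutathione synthesis did not pass: Gclm had 0.12 ± 0.25 and Gclc 0.66 ± 0.30 (adjusted p = 0.997 and 0.477), the latter 1.19 and passing without unexposed array 2 (0.01). Among 19 glutathione S-transferases, which conjugate glutathione to foreign compounds, the median was 0.64 and Gsta1 alone passed (1.82 ± 0.38, 0.00688; 0.0655 without unexposed array 3 and 0.0613 without array 1); with the block 8 rose. Of 16 genes of the Ah receptor and xenobiotic list, Nqo1 was the single call.

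Other enzymes and stress genes were among the largest rises. Ampd3, which deaminates AMP, lay at 6.31, 5.65 and 5.32 in unexposed and 8.82, 9.31 and 8.20 in exposed cultures, 3.02 ± 0.45 (adjusted p = 0.000153). Casp4, an inflammatory caspase, lay at 5.89, 6.51 and 5.85 and 8.81, 9.05 and 9.03, 2.88 ± 0.26 (7.46e-08). Exposed array 2 was the highest for both, and array 3 the lowest of the exposed for Ampd3. Casp4 was the 1 call among 22 measured genes of the p53 and apoptosis list (median 0.002).

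Genes of cell division fell. Of 35 measured mitosis genes, 18 fell and none rose, against 0.703% of all genes lower and 1.81% higher, with a median of -1.07 and 34 of 35 differences below 0. The count of falls was 15 without unexposed array 2, 20 without unexposed array 3, and 10 without unexposed array 1 or exposed array 2; without exposed array 3 it was 11. With the block 31 fell. Called in every leave-out were 9: Ect2, Top2a, Racgap1, Nuf2, Kif11, Bub1, Cenpf, Hmmr and Cenpa. Promoters of Top2a and Cenpa are shown, the falls of greatest size among called members with TTTGAA upstream of the start. These letters are the core of the cell cycle homology region, a repressor site of many G2 and M phase genes, and are marked in capitals (TTCAAA on the other strand). The windows are chr10:84473094-84473193 and chr6:31431619-31431718 of GRCr8, both on the minus strand, from RefSeq.
Top2a: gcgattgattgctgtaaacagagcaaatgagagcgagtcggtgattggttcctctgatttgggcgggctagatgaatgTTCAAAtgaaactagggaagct
Cenpa: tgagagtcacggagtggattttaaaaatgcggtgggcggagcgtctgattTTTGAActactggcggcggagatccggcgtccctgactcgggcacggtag
TTTGAA was in the 300-base window of 12 of the 16 called members with a promoter entry and of 9 of the 14 not called, against 18.1% of all promoters. CCAAT, the letters of the CCAAT box, was in 14 of the 16 and in 9 of the 14, against 37.7% of all.

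Top2a, the topoisomerase that untangles chromosomes, fell the most of the called members and lay at 12.06, 11.20 and 11.87 in unexposed and 10.11, 9.92 and 10.14 in exposed cultures. It fell by 1.65 ± 0.24 (adjusted p = 8.13e-05), and unexposed array 2 was the lowest of its group. Ect2, which directs cytokinesis, lay at 10.88, 10.71 and 10.75 and 9.47, 9.50 and 9.20, a difference of -1.39 ± 0.16 (adjusted p = 2.79e-06), the smallest p of the list. The checkpoint kinase Bub1 differed by -1.44 ± 0.23 (0.000285) and the centromere histone Cenpa by -1.45 ± 0.26 (0.0015). Racgap1, partner of Ect2 at the spindle, differed by -1.33 ± 0.19 (0.000106) and the spindle motor Kif11 by -1.23 ± 0.19 (0.000217). Cdk1 and Ccnb1, the kinase and cyclin that start mitosis, were at the threshold (-0.88 ± 0.23 and -1.11 ± 0.30, both adjusted p = 0.0499) and were lost in 5 of 6 leave-outs, without array 2 of the unexposed group at 0.0933 and 0.12. Mki67, a proliferation marker, had -1.59 ± 0.44 and was not called (adjusted p = 0.0684; 0.000161 in the blocked fit). Of 30 DNA replication genes all differences were negative (median -0.48), and 3 fell: Mcm5, of the replicative helicase (-1.08 ± 0.26, 0.0248), Uhrf1 (-0.99 ± 0.25, 0.0308) and thymidine kinase Tk1 (-0.75 ± 0.20, 0.0432). None of the 3 was called in all 6 leave-outs, and without unexposed array 2 only Uhrf1 passed (0.0083; Mcm5 0.062, Tk1 0.0658). With the block 10 fell. Cdkn1b, the inhibitor p27, was the 1 call among 21 genes of G1 cyclins and growth arrest (0.38 ± 0.09, 0.0168), lost in 4 of 6 leave-outs: without unexposed array 1 (0.0819) or 2 (0.06) and without exposed array 1 (0.0568) or 2 (0.087). In these bulk cultures a smaller share of dividing cells and less transcript per cell cannot be told apart.

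Steroid synthesis, the main task of these cells, gave 1 call among 20 measured genes. Hsd11b1, which regenerates active glucocorticoid, lay at 6.51, 6.79 and 6.59 in unexposed and 9.65, 8.54 and 9.18 in exposed cultures, 2.50 ± 0.35 (adjusted p = 5.43e-05). Star, which carries cholesterol into mitochondria, lay at 11.14, 10.85 and 9.42 and 12.60, 12.34 and 12.004; the groups did not overlap, but the difference of 1.85 ± 0.54 did not pass (adjusted p = 0.0929) except with the replicate block (0.000143). Cyp11a1, the side-chain cleavage enzyme, differed by 0.27 ± 0.79 and Hsd3b1 by 0.07 ± 0.42 (adjusted p = 0.999 for both). The Cyp11a1 difference was 0.78 without unexposed array 2 and -0.46 without array 3. Cyp19a1, at 7.69, 7.60 and 7.51 in exposed cultures, differed by -0.77 ± 0.95 with unexposed array 2 and by 0.56 without it (adjusted p = 0.969 and 0.873). The sign of both the Cyp11a1 and the Cyp19a1 difference turned with 1 array. Akr1c3, a hydroxysteroid dehydrogenase of the list, had 1.46 ± 0.76 (0.596; 0.000316 in the blocked fit), where 4 genes of the list rose and 1 fell.

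Of 17 genes of lipoprotein uptake and cholesterol transport, 2 rose and 1 fell, all 3 in every leave-out. In the blocked fit 4 rose and 1 fell. Apoe, the lipoprotein component, lay at 7.65, 8.51 and 7.77 in unexposed and 10.94, 9.98 and 10.95 in exposed cultures, 2.65 ± 0.36 (adjusted p = 3.75e-05); its other, dimmer probe set gave -0.26. Abca1, which exports cholesterol, rose by 0.86 ± 0.15 (0.000939). Lpl, lipoprotein lipase, lay at 8.61, 9.58 and 9.42 and 7.29, 7.93 and 7.60, -1.60 ± 0.27 (0.000711). Scarb1, the receptor for high-density lipoprotein, had 1.05 ± 0.51 (adjusted p = 0.539). Of 21 genes of cholesterol biosynthesis none passed (median -0.14). Without unexposed array 2, 1 rose and without array 3, 1 fell.

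Several genes of immune and surface proteins were among the largest rises. Vcam1, an adhesion molecule for leukocytes, lay at 6.85, 8.20 and 6.41 in unexposed and 10.72, 9.91 and 9.45 in exposed cultures. Unexposed array 2 was its highest control, and the difference was 2.87 ± 0.36 with it and 3.39 without it (adjusted p = 1.46e-05 and 9.53e-07). Reg3g, a secreted antimicrobial lectin, lay at 5.57, 5.21 and 5.01, near the first quartile of the arrays, and at 7.68, 7.48 and 8.34, 2.57 ± 0.20 (8.92e-09). Cd24, a surface glycoprotein, lay at 7.65, 5.79 and 6.95 and 9.10, 9.28 and 9.98, 2.66 ± 0.33 (1.21e-05), and Pamr1 at 7.31, 6.94 and 6.74 and 9.37, 9.55 and 10.25, 2.73 ± 0.39 (8.13e-05). Exposed array 3 was the highest for Reg3g, Cd24 and Pamr1, and unexposed array 2 the lowest for Cd24. Of 24 adhesion and inflammation genes 3 rose in all: Vcam1, the cytokine Il18 (1.35 ± 0.23, 0.000858) and lipocalin Lcn2 (1.35 ± 0.25, 0.0017). The blocked fit called 6 of the 24, all rises. Of 23 interferon and immunoproteasome genes 5 rose (median 0.27): Gbp2 (1.18 ± 0.20, 0.00069), Psmb8 (1.03 ± 0.24, 0.0158), Irf1, Ifit2 and B2m. Gbp2, an interferon-induced GTPase, was the 1 of them called in all 6 leave-outs; without unexposed array 3 Psmb8 passed too (0.0299), and the other three had adjusted p from 0.171 to 0.26.

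Among the largest falls were secreted and matrix proteins. Scg2, a granule protein cleaved to peptides, lay at 6.43, 7.32 and 8.19 in unexposed and 4.08, 4.54 and 4.46 in exposed cultures, the latter below the first quartile of the arrays. Its difference was -2.96 ± 0.49 (adjusted p = 0.000491). Kcnd2, a voltage-gated potassium channel, lay at 8.01, 8.45 and 6.55 and 4.75, 5.02 and 4.67, -2.86 ± 0.37 (2.48e-05). Its exposed values, too, lay below the first quartile of their arrays, and its second probe set gave -0.56. The matricellular protein Smoc2 lay at 10.10, 11.03 and 10.37 and 7.73, 8.04 and 7.48, -2.75 ± 0.39 (6.29e-05), and its 3 probe sets ran from that value to -0.26. In the unexposed group, array 3 was the highest for Scg2 and the lowest for Kcnd2, and array 2 the highest for Smoc2. Tgfbi, an adhesive matrix protein, differed by -1.99 ± 0.39 (0.00382) and Col1a1, a collagen I chain, by -1.93 ± 0.37 (0.00292), with unexposed array 2 the highest for both; without it they were -1.57 and -1.45 (0.0378 and 0.0324). Ccn2, a matricellular protein, differed by -0.94 ± 0.16 (0.000976) and the ligand Tgfb2 by -1.18 ± 0.30 (0.0313). Together with Tgfbi they were the 3 falls among 34 matrix proteins and regulators. Under the block, 7 of the 34 rose and 5 fell. Among 17 collagen chains Col1a1 fell and Col3a1 rose (1.17 ± 0.31, 0.0468). Tgfb2 and Col3a1 each lost their call in 4 leave-outs, without unexposed array 3 at 0.0896 and 0.191.

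The remaining large falls were mixed in kind. Cps1, of the urea cycle, differed by -1.84 ± 0.32 (adjusted p = 0.000857), Il13ra2, a decoy receptor for interleukin-13, by -1.61 ± 0.30 (0.0022), Lurap1l by -1.61 ± 0.29 (0.00114) and Tmem252 by -1.60 ± 0.35 (0.00942). Tmem252 was lost without unexposed array 3 (0.0658) or exposed array 1 (0.0934). Plagl1, an imprinted zinc finger gene, lay at 9.02, 10.06 and 8.49 and 7.01, 7.99 and 7.09, -1.83 ± 0.44 (0.0219), and Acsbg1, an acyl-CoA synthetase, at 9.45, 11.41 and 9.52 and 8.63, 8.28 and 8.46, -1.67 ± 0.41 (0.0277). Unexposed array 2 was the highest for both, and without it neither passed (differences -1.39 and -1.03, adjusted p = 0.13 and 0.185). Each also lost its call in 3 further leave-outs, at up to 0.13 and 0.12.

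The hormone lists held 1 to 3 calls each, read against 2.51% of all genes called in either direction. Of 36 cAMP and protein kinase A response genes, Pde4b, a phosphodiesterase that degrades cAMP, rose (10.57, 10.54 and 10.19 in unexposed and 12.21, 12.17 and 12.24 in exposed cultures, 1.77 ± 0.28, adjusted p = 0.000267). Of 23 ovulatory genes, Plat, tissue plasminogen activator (1.48 ± 0.21, 6.29e-05), and the growth factor Areg (1.61 ± 0.35, 0.00965) rose, and Areg lost its call without unexposed array 1 (0.0741) or exposed array 3 (0.131). Igfbp5, which binds insulin-like growth factors, was the 1 call of 27 granulosa differentiation genes (0.90 ± 0.13, 8.38e-05). Of 26 estrogen-responsive genes 3 rose, Hspb8, Xbp1 and Ctsd, none of them called without unexposed array 3 (adjusted p from 0.0559 to 0.253). Of 26 hypoxia and glycolysis genes, Vegfa (0.85 ± 0.13, 0.000149) and the glucose transporter Slc2a3 (1.04 ± 0.22, 0.0094) rose, the latter not without exposed array 2 (0.0691). No member of the lists of contractile genes (25), retinoid genes (17) or the respiratory chain (24) passed in the limma fit, and at 2.51% of all genes lists of this size would hold few calls or none. In the blocked fit 2 contractile genes fell, and 1 retinoid and 2 respiratory chain genes rose. Over all probe sets 2907 had an unadjusted p under 0.05.

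Markers of the cell types that a follicle puncture can yield were read the same way. Of 9 granulosa markers none passed; their summed linear intensity was 12760 to 16410 in exposed and 13860 to 21770 in unexposed cultures, the top value on array 2, and 8 of the 9 also stand in other lists here. Of 10 theca and stroma markers, Col1a1 fell, and the sum was 3187 to 3553 against 3315 to 6642, again highest on array 2. None of 12 leukocyte, 9 endothelial or 5 oocyte markers passed. In unexposed cultures 6 of the 12 leukocyte markers averaged below the first quartile and the defining Ptprc was at 5.03, while Lyz2 and Cd14 averaged 7.50 and 6.84 (exposed 7.41 and 7.78). Of the 9 endothelial markers 5 lay below that quartile. Pecam1 averaged 5.43 and the growth factor receptor Kdr 8.60 (exposed 5.85 and 8.74). The leukocyte sum was 651.4 to 1116 against 594.5 to 1293, the endothelial 769.1 to 797.6 against 661.3 to 873.2 and the oocyte 547.8 to 914.3 against 428 to 649.3. Of 9 surface epithelium markers, whose sum was 1591 to 2213 against 1549 to 2359, Upk1b rose from 5.58, 4.93 and 5.17 to 7.97, 6.90 and 7.68 (2.29 ± 0.34, adjusted p = 0.000134). In unexposed cultures 2 of the 9 lay below the first quartile, and the averages ran from 4.56 for Msln to 10.29 for Lrrn4, with the keratins Krt8 and Krt18 at 6.58 and 6.79. An array gives no true zero, and the part of such cells in the results was not tested.

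Lower doses gave few calls. With cAMP, 1 µM HPTE gave no called probe set in the limma fit. There, 743 had an unadjusted p under 0.05, where 1552 would be expected with no effect. The 743 became 1718 with the block and 1661 without unexposed array 2. The low count therefore does not show that 1 µM had no effect. With the block 7 were called, without unexposed array 1 there were 9, and without array 3 at 1 µM there were 2. At 5 µM 1 (0.00322%) was called, Ampd3 (adjusted p = 0.00808), and 2624 had an unadjusted p under 0.05. That number was 4796 without unexposed array 2, with no call, and 765 without array 3, with a single call that was a fall. Ampd3 lost its call without either of these (0.0954 and 0.103) and without array 1 or 2 at 5 µM (0.0734 and 0.101). Without unexposed array 1 there were 6 calls, all rises, and with the block 23. The 3 doses share the unexposed arrays, so their differences stand side by side as a description. Ampd3 differed by 1.13 at 1 µM, 3.07 at 5 µM and 3.02 at 10 µM, already as high at 5 µM. Trib3 differed by 0.40, 1.03 and 3.34 and Akr1c15 by 0.52, 0.90 and 3.49, most of it between 5 and 10 µM. The median of the ATF4 list was 0.13 at 1 µM, 0.17 at 5 µM and 1.08 at 10 µM. Reg3g ran from -0.07 to 0.75 and 2.57, and Kcnd2 from -0.83 to -1.63 and -2.86. Mitosis genes did not follow that order: their median was 0.62 at 1 µM, 0.09 at 5 µM and -1.07 at 10 µM, and all 3 arrays at 1 µM lay above all 3 without HPTE (0.56 to 0.63 against -0.25 to 0.23).

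**Figure D3:**
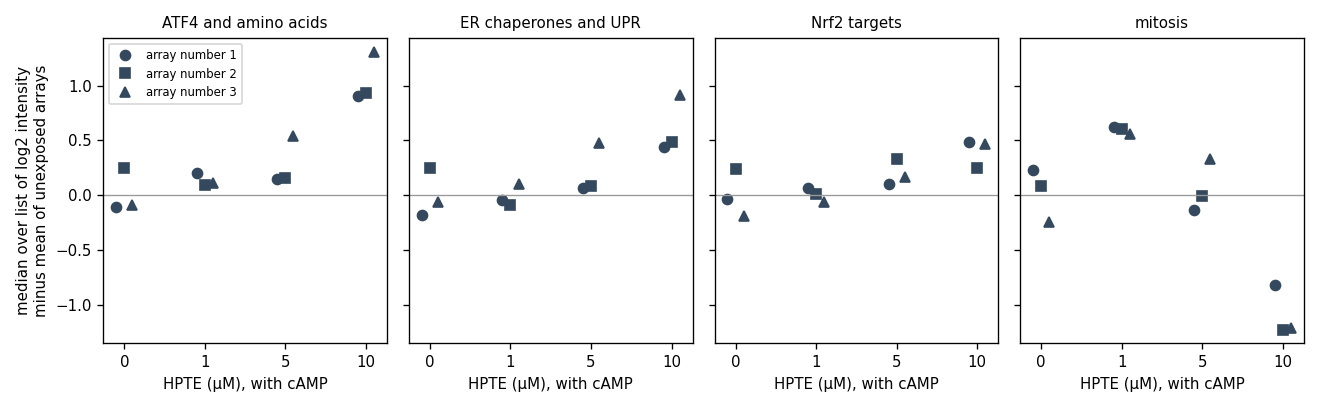
Median over the members of 4 gene lists of the log2 intensity minus the mean of the unexposed arrays (vertical axis), per array, at 0, 1, 5 and 10 µM HPTE with cAMP; the symbol gives the array number. The ATF4 list stands at 0.90 to 1.31 on the 10 µM arrays against -0.11 to 0.25 without HPTE, and the mitosis list at -1.22 to -0.82 and at 0.56 to 0.63 at 1 µM.

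Whether the effect of 10 µM HPTE depended on the stimulus was tested as the difference between effects. Against unstimulated cells 40 probe sets differed (0.129% of 31042), 34 (0.11%) with a more positive and 6 (0.0193%) with a more negative effect under cAMP. Of the 40, 28 were among the 525, an overlap partly built in because both comparisons use the same cAMP arrays. With the block 177 differed. Without exposed array 3 there were 24, without array 1 of the unstimulated cultures lacking HPTE 26, and without unexposed array 2 there were 50. Reg3g had 2.57 ± 0.20 under cAMP and 0.03 ± 0.20 in unstimulated cells, a difference of effects of 2.54 ± 0.29 (adjusted p = 4.85e-05). Akr1c15 rose in both but more under cAMP, 3.49 ± 0.19 against 1.52 ± 0.19 (difference 1.98 ± 0.26, 0.000229). Cd302, a lectin receptor, had 1.45 ± 0.24 against -0.61 ± 0.24, and Olfml2a 2.26 ± 0.24 against 0.28 ± 0.24 (adjusted p of the difference 0.00325 and 0.00564). Kcnd2, at -2.86 ± 0.37 under cAMP, had -0.14 ± 0.37 unstimulated (difference -2.72 ± 0.53, 0.0221), a call lost without unexposed array 2 (0.068) and in 7 more of the 12 leave-outs, at up to 0.0887. Serpinb1a, a protease inhibitor, Esm1, the proteoglycan endocan, and Lrrc39 were the other three genes with a negative difference, and Esm1 lost its call without unexposed array 2 (0.058). Under cAMP they had 0.12 ± 0.21, 0.09 ± 0.23 and -0.16 ± 0.20, and in unstimulated cells 1.92 ± 0.21, 1.76 ± 0.23 and 1.49 ± 0.20. Of 14217 genes 27 (0.19%) differed, none of them in the ATF4 or mitosis list, which does not show that the effects were equal. The ATF4 list had a median of 0.59 in unstimulated cells and 1.03 with FSH, where 6 and 17 of 32 rose (of all genes 0.584% and 5.83%). The mitosis list had -1.13 and -0.73, where 22 and 13 of 35 fell (of all genes 0.879% and 5.02%).

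Against FSH-stimulated cells 584 probe sets differed in the effect of HPTE (1.88%), 263 (0.847%) more positive and 321 (1.03%) more negative under cAMP. HPTE itself changed 514 of these 584 under FSH, where 8.45% of all probe sets were called, and 77 under cAMP, where 1.69% were. These effects share their arrays with the tested difference, so both overlaps are partly built in. Leaving out both arrays that look exchanged gave 1123, of which 698 were more positive and 425 more negative, so the balance of directions turned. It also turned without unexposed cAMP array 2 alone, 482 against 329, and without FSH array 2 lacking HPTE alone, 415 against 393. With the block and all arrays it was 953 against 894. Cyp11a1 had 0.27 ± 0.79 under cAMP and -4.37 ± 0.79 with FSH (difference 4.64 ± 1.11, adjusted p = 0.0225), and Scarb1 1.05 ± 0.51 and -3.03 ± 0.51 (0.0015). Hao2, a hydroxyacid oxidase, and Gstm7, a glutathione S-transferase, had -0.16 ± 0.40 and 0.01 ± 0.39 under cAMP against -4.15 ± 0.40 and -3.81 ± 0.39 with FSH. Vcam1 rose by 2.87 ± 0.36 under cAMP and had -1.09 ± 0.36 with FSH, where it was not called (difference 3.96 ± 0.51, 3.88e-05). In the other direction, Acta2, smooth muscle actin, had -0.62 ± 0.55 under cAMP and 3.45 ± 0.55 with FSH (difference -4.07 ± 0.77, 0.00268). Of the 25 contractile genes none passed under cAMP and 17 rose with FSH, and the effect on 9 was more negative under cAMP (of all genes 1.36%). The angiotensin receptor Agtr2, the decoy receptor Tnfrsf11b, the lipid receptor S1pr1 and the kinase A anchor Akap12 rose with FSH by 3.93 ± 0.72, 4.28 ± 0.42, 4.48 ± 0.40 and 2.82 ± 0.46, and under cAMP had -1.11 ± 0.72, 0.16 ± 0.42, 0.43 ± 0.40 and -1.10 ± 0.46. Cyp11a1 lost its call in 5 of the 12 leave-outs, at up to 0.0931.

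**Figure D4:**
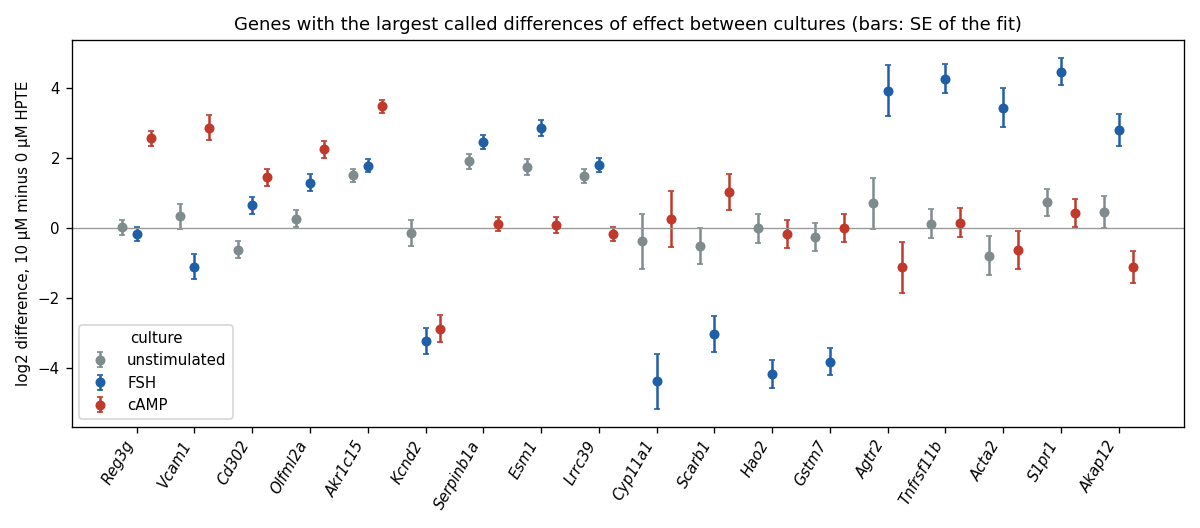
Difference in log2 intensity between 10 and 0 µM HPTE (vertical axis) in unstimulated (grey), FSH-stimulated (blue) and cAMP-stimulated (red) cultures, for the genes with the largest called differences of effect, with bars for the SE of the fit. Reg3g stands at 2.57 under cAMP and near 0 in both other cultures, while Hao2, Gstm7 and Tnfrsf11b lie near 0 under cAMP and far from it with FSH.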

How the data were processed

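RNA of 36 cultures, 40 ng each, was amplified and put on Affymetrix rat expression arrays, per the labels' protocols. The authors' deposited table holds linear intensity, already normalized and summarised per probe set. The submitters' processing notes name RMA, with no version. Their log2 was taken, and 57 of 31099 probe sets, controls, were set aside, with no filter on level. A single array has no read depth, so 3 arrays per group limit the precision. In limma 3.58.1 under R 4.3.3, by lmFit, contrasts.fit and eBayes, 12 group means were fitted to all 36 arrays with 24 residual degrees of freedom. Two-sided p-values were adjusted by Benjamini-Hochberg over 31042 probe sets in each comparison, with 0.05 as the threshold. The code of the fit was checked on simulated data with independent noise per array. That simulation held no link between arrays of the same number and no exchanged arrays, so it does not bear on those. Each of 14217 genes was read from its brightest probe set; names came from the platform annotation, brought to current symbols with RefSeq. Promoter sequences are RefSeq's (GRCr8).

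The labels do not state pairing, so the main fit did not take the numbers as pairs. The replicate block was an alternative, and blocked values are given beside the main ones. The deviations of exposed and of unexposed arrays from their own group means, for the same number, correlated at 0.206, 0.155 and 0.467. Exposed array 2 correlated best with unexposed array 1 (0.357). The 24 genes with the largest rise or fall among called genes with non-overlapping groups were named, and up to 5 per direction for each interaction. The comparison and the 31 gene lists (656 measured places, 626 genes) were chosen with earlier results of these data known. Alternatives were the block, each array left out, both arrays that look exchanged left out, arrays 1 and 2 only, only the compared groups, quantile normalization, a floor of 6 on the mean log2, an offset of 16, and a robust trended eBayes fit; lists were also read from the mean of all probe sets of a gene. No set test was made.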

Additional observations from a re-analysis of the deposited data

Results flagged for a closer look

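The effect of 10 µM HPTE differed between cAMP-stimulated and unstimulated cells on 40 probe sets, by the test of the difference between effects. The log2 differences of effect, cAMP minus unstimulated, were Reg3g (2.54), Vcam1 (2.53), Cd302 (2.06), Olfml2a (1.98) and Akr1c15 (1.98) in the positive direction and Kcnd2 (-2.72), Serpinb1a (-1.79), Esm1 (-1.67) and Lrrc39 (-1.65) in the negative. Vcam1 passed with all arrays (adjusted p = 0.0292) and lost its call in 11 of the alternatives, at up to 0.548. Esm1 lay at 3.98, 4.74 and 4.33 in unexposed cAMP cultures, below the first quartile of the arrays, and lost its call in 7 alternatives, among them without unexposed cAMP array 2 (0.058) and without both arrays that look exchanged (0.0521).

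Between cAMP- and FSH-stimulated cells the effect differed on 584 probe sets. The log2 differences of effect, cAMP minus FSH, were Cyp11a1 (4.64), Scarb1 (4.07), Hao2 (3.99), Vcam1 (3.96) and Gstm7 (3.81) in the positive direction and Agtr2 (-5.05), Tnfrsf11b (-4.11), Acta2 (-4.07), S1pr1 (-4.04) and Akap12 (-3.92) in the negative. Without both number 2 arrays that look exchanged these genes kept their direction and their call, from -6.63 for Agtr2 to 5.60 for Cyp11a1.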

How the results depend on the processing

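Over the alternatives run, the 24 named genes of the 10 µM comparison and the named genes of both interactions kept their direction; calls were kept in 331 of 357, 153 of 185 and 201 of 210 refits. The probe sets called at 10 µM, 525 with all arrays, numbered 278 to 659 with 1 array left out, 1810 with the replicate block, 792 without both number 2 arrays that look exchanged (2864 with the block as well), 330 with arrays 1 and 2 only and 62 with the compared groups only, where 6 arrays carry the spread. The interaction with unstimulated cells, 40, gave 24 to 50, 177, 70 (527 with the block), 17 and 10 in the same order, and that with FSH, 584, gave 390 to 811, 1847, 1123 (3059), 172 and 300. At 1 and 5 µM the block gave 7 and 23 calls, and leaving out each of the 6 arrays compared, added after seeing the data, 0 to 9 and 0 to 6. The mitosis list, 18, gave 31 with the block and 10 to 20 with 1 array left out, and the ATF4 list, 18, gave 22 and 13 to 17. The replicate block took away no call among the named genes. The cause of these shifts was not tested. Fold changes of probe sets near or below the first quartile are limited by background signal. Examples are Reg3g and Slc7a3 without HPTE, and Scg2 and Kcnd2 with cAMP and 10 µM HPTE.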

Other observations

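Further genes with small p-values outside the lists were picked after their values were seen and have no test beyond the fit. Reg3b, a lectin of the same family as Reg3g, rose by 2.12 ± 0.19, adjusted p = 6.01e-08. Aldh1l2, of mitochondrial folate metabolism, rose by 2.56 ± 0.27, adjusted p = 1.15e-06, and Gpt2, which makes alanine from pyruvate and glutamate, by 1.56 ± 0.15, adjusted p = 3.08e-07. Itgb3, an integrin subunit, rose by 2.04 ± 0.20, adjusted p = 3.08e-07. Slc6a4, the serotonin transporter, rose by 1.89 ± 0.25, adjusted p = 2.52e-05, and the tight junction gene Cldn10 by 1.44 ± 0.19, adjusted p = 2.8e-05. Grn, progranulin, rose by 1.26 ± 0.19, adjusted p = 0.000136, and the proteases Lgmn, legumain, and Ctsa, cathepsin A, by 1.22 ± 0.20, adjusted p = 0.00069, and 1.03 ± 0.17, adjusted p = 0.000481. Lgals3, a galectin, rose by 2.04 ± 0.29, adjusted p = 6.14e-05, and Grb10, an adaptor of insulin signalling, by 2.04 ± 0.36, adjusted p = 0.00128. Among falls outside the lists were Diaph3, a formin (-1.36 ± 0.16, adjusted p = 3.76e-06), Pclaf, which binds the replication clamp (-1.38 ± 0.18, adjusted p = 3.11e-05), Smc2, a condensin subunit (-0.99 ± 0.14, adjusted p = 8.13e-05), and Plk4, the kinase of centriole duplication (-1.07 ± 0.19, adjusted p = 0.00138).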
